A study of Mus musculus with 68 samples.

Results

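The resting zone of the mouse growth plate was compared with the proliferative zone below it at postnatal day 28 (P28). The members were the ethanol-fixed P28 libraries that the labels place in either zone, 8 resting and 9 proliferative, or 17 of the 68 libraries of the series. Libraries with at least 100000 counts were kept, which left 3 resting and 6 proliferative ones. Libraries of 1 animal and zone were then summed, so that the comparison rested on 3 animals with both zones, called A, B and D here. Libraries of A and B belong to 1 set of the deposit and those of D to another, in which each library has 2 columns of counts. What is due to the set and what to animal D cannot be told apart. The mice were of mixed background, and the labels name no allele and no agent for any of these groups. Bones were snap-frozen, cells were picked from stained sections by laser capture, and the libraries were made by SMART-seq2, which copies whole transcripts from very little RNA. The labels of P28 animal B and of P2 animal D name animals in the plural, so each can be a pool. Side by side with P28 ethanol stand P2 ethanol sums (4 per zone, 3 animals with both zones, 2 days old) and xylene-fixed P28 sections of animals D and E, of which D shares its label with the ethanol set.

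The growth plate is the cartilage that lengthens long bones. Its resting zone holds slowly cycling reserve chondrocytes, whose daughters enter the proliferative columns, enlarge as hypertrophic cells and give way to bone. In mice, PTHrP from the top of the plate and Indian hedgehog from prehypertrophic cells form a loop that sets where columns stop dividing. Growth plate cartilage has no blood vessels, and its cells are known for living at low oxygen and for relying on glycolysis.

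Resting sums held 108601, 135624 and 260199 counts in A, B and D, and proliferative sums 339329, 688270 and 915624. Detected genes numbered 6261, 6844 and 4209 in resting and 10324, 11626 and 7164 in proliferative sums. At these depths 3 counts correspond to 11.7 to 15.9 counts per 1000000 (CPM) in resting and 3.39 to 7.05 CPM in proliferative sums, so a low gene is seen less readily in the resting zone. The resting library just inside the minimum held 108601 counts, and those just outside held 92552, 86737 and 83115. The cartilage markers Col2a1, Acan and Sox9 were present in every sum, with Sox9 at 651, 563 and 319 CPM in the resting sums and 787, 779 and 642 CPM in the proliferative ones of A, B and D. Markers of other cell types were present in part. Of 15 endothelial and pericyte markers 8 had 0 counts in all 6 sums, Pecam1 and Cdh5 among them. The list summed to 198 to 677 CPM in resting and 541 to 951 CPM in proliferative sums, most of it from Cspg4, and Eng had 8 and 5 counts in the resting sums of A and B. Of 19 osteoclast and macrophage markers 11 were at 0, Csf1r among them, with 0 to 15.5 CPM in resting and 10.8 to 49.4 CPM in proliferative sums. Of 9 adipocyte markers 6 were at 0, Adipoq among them, with 0 to 21.2 and 14.1 to 21.6 CPM. The part of these cells in the results was not tested. Counts outside Rn45s, the ribosomal RNA precursor, Lars2 and Glra2 made up 54.9% to 67.3% of resting and 41.1% to 68.6% of proliferative sums. Per kilobase of exon and outside these symbols, the highest mean levels were those of Sparc (5448 CPM per kilobase), Mgp (4883) and Col2a1 (4264) in the resting zone and of Col2a1 (10167), Sparc (5081) and Col9a3 (3083) in the proliferative zone.

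Some libraries stood apart. Proliferative replicate 9 of animal D held 267 Xist counts and 0 Y-linked counts, whereas the resting library of D held 0 and 76 and proliferative replicate 8 of D held 0 and 4. A library with Xist and no Y-linked counts goes against a label it shares with male-pattern libraries. The gene counts of replicates 8 and 9 differed by a chi-square of 45.2 per degree of freedom, against 4.49 and 6.92 for the paired proliferative libraries of A and B. The resting libraries of A and B held 183 and 173 Xist counts and 0 Y-linked counts. Their proliferative libraries also held Xist and no Y-linked counts. So the resting sums of A and B had a female pattern and that of D a male one. The resting sum of A held the hypertrophic collagen Col10a1 at 8159 CPM, compared with 10.1 in B and 27.2 in D. The resting sum of D held 177 counts of a haemoglobin chain, listed as Beta-s, against 18 in A, 3 in B and 1 to 8 in the proliferative sums. Erythroid markers summed to 20.3 to 711 CPM in resting and 6.48 to 30.6 CPM in proliferative sums, with 5 of 11 at 0 throughout. Beta-s did not pass in the main test (edgeR, adjusted p = 0.0631) but did with RLE scaling and in DESeq2.

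At P28, 39 of 6958 genes tested passed the threshold, 0.561% of them, 10 higher in the resting zone (0.144%) and 29 lower (0.417%). The higher genes included 4 resting zone markers, an imprinted RNA and an adhesion protein. Among those lower were 7 markers of prehypertrophic cells, 4 genes of glycolysis and hypoxia, 2 of sterol and fatty acid synthesis and the main collagen chaperone. In bulk captures, fewer cells of a type and less RNA per cell cannot be told apart. The test was edgeR's quasi-likelihood test with the animal as a block and Benjamini-Hochberg adjustment over all 6958 genes at 0.05, and 729 genes (10.5%) had an unadjusted p under 0.05. All 29 lower genes lay below in each of the 3 animals with no overlap of the groups, against 14.7% of all genes tested. Of the 10 higher genes 8 did not overlap, against 2.53% of all genes, and Efemp1 and Lhfp were the ones that did. The same sums chose the 39 genes, so these shares describe the calls and support nothing.

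**Figure D1:**
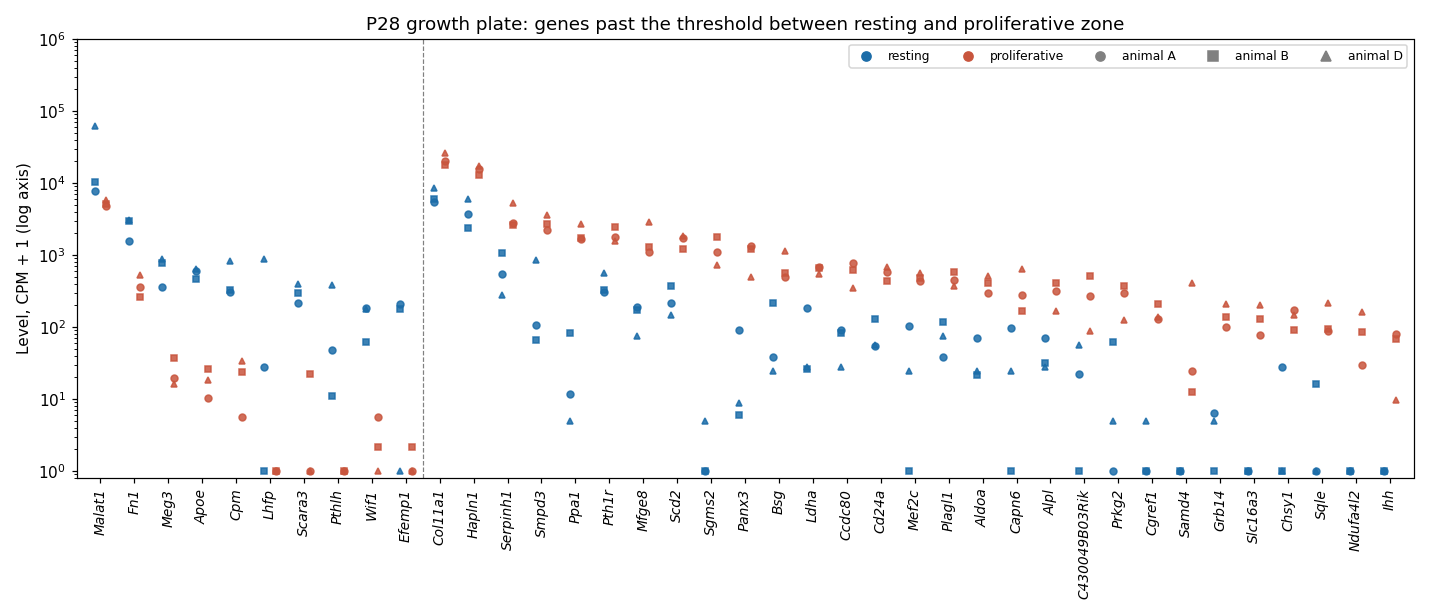
Level of each gene past the threshold in the resting (blue) and proliferative (red) sums of P28 animals A, B and D, on a log axis of CPM + 1; each point is 1 animal and there are no error bars. Genes left of the dashed line were higher in resting and those right of it lower, and points at the bottom are 0 counts.

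The balance of higher and lower calls moved with the scaling. With the main scaling (TMM) the median of all genes was -0.81 on the log2 scale, and with RLE scaling it was -0.24. Under RLE 18 genes passed, 12 higher and 6 lower. All 10 higher genes of the main test were kept, and the lower ones kept were Sgms2, Ppa1, Panx3, Smpd3, Mef2c and Cgref1. The count was 2, Meg3 and Ppa1, when the animal was not a block. It was 8 without the Xist-bearing library of D, with Meg3, Scara3, Fn1, Apoe, Sgms2, Ppa1, Panx3 and Smpd3 passing. Leaving out P28 animals A, B and D in turn gave 17, 5 and 18 genes, and leaving out P2 animal D gave 10. Ppa1, Meg3 and Sgms2 passed in each of the 9 fits without 1 animal, of which 3 left out a P28 animal and the others left the P28 sums as they were. DESeq2 called 128 genes, 52 higher and 76 lower.

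Resting zone markers were higher in part. Of 16 tested, 4 rose, 0 fell and the median was 2.62 on the log2 scale, while 5 had a fitted change below 0. Of all genes 0.144% rose and 0.417% fell, and their median was -0.81. Every resting sum lay above every proliferative one for 6 of the 16, against 2.53% of all genes. These were Apoe, Clu, Pthlh, Sfrp5, Spon1 and Wif1. For 2, Gdf10 and Prelp, every resting sum lay below, against 14.7% of all genes. The summed level of the list was lower in the resting zone of each animal, at 5027, 3870 and 5434 CPM against 6090, 4648 and 11776 CPM in A, B and D. Apolipoprotein E (Apoe), a lipid carrier, stood at 593, 456 and 634 CPM in the resting sums of A, B and D and at 9.4, 24.9 and 17.3 CPM in the proliferative sums. Its levels were far apart in every animal, with a log2 change of 5.33 ± 1.28 (edgeR, Benjamini-Hochberg adjusted p = 0.0162). Wif1, a secreted inhibitor of Wnt ligands, was at 179.9, 60.9 and 175 CPM against 4.7, 1.13 and 0 CPM, with 91 counts against 3. Efemp1, or fibulin-3, a matrix glycoprotein, was at 206, 178 and 0 CPM against 0, 1.13 and 0 CPM. Animals A and B carried its resting counts and D had 0. Clu, the secreted chaperone clusterin and a panel gene, just missed the threshold at 21.2, 218 and 202 CPM against 0, 1.13 and 0 CPM (edgeR, adjusted p = 0.0503).

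Pthlh encodes PTHrP, the ligand that delays chondrocyte maturation. Its level was 47.6, 10.1 and 381 CPM in resting sums and 0 in all 3 proliferative sums, and it was at least 100.1-fold higher against a floor of 3 counts over the group. It was seen in all 3 animals, but 98 of the 109 counts came from D. Its receptor gene Pth1r was lower in the resting zone, at 307, 325 and 559.7 CPM against 1784, 2468 and 1566 CPM, a change of -2.37 ± 0.57 (edgeR, adjusted p = 0.0162). Sfrp5, another secreted Wnt binder, was at 26.5, 65.9 and 66.1 CPM against 14.1, 4.52 and 2.16 CPM and did not pass (edgeR, adjusted p = 0.491). Ucma, a secreted protein of early chondrocytes that is often used to mark the upper plate, was at 677, 918 and 657 CPM against 569, 443 and 936 CPM, with overlapping groups and a change of 0.15 ± 0.70; its sign turned to -1.08 when the minimum of 100000 counts left out Rn45s, Lars2 and Glra2. Gas1, a hedgehog co-receptor, had 2 counts in each zone, too few at this depth to tell.

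The other genes higher in the resting zone fell outside the zone marker list. Meg3, an imprinted non-coding RNA of the Dlk1 locus (GRCm38, chromosome 12, 109541001 to 109571726, plus strand), was at 359.8, 776 and 882 CPM in the resting sums and 18.8, 36.2 and 15.1 CPM in the proliferative ones. Every resting sum lay far above every proliferative sum, with a change of 5.04 ± 0.72 (edgeR, adjusted p = 7.15e-09). Dlk1 itself had 0 counts in all 6 sums. Fibronectin (Fn1; chromosome 1, 71585520 to 71653200, minus strand), the cell-adhesive matrix glycoprotein, was at 1561, 2987 and 3063 CPM against 355, 261 and 519 CPM and rose by 2.74 ± 0.62 (edgeR, adjusted p = 0.00515). Fn1 was also at 3333, 2981 and 1868 CPM in the hypertrophic sums of A, B and D, so the level was not particular to the resting zone. Fn1 was the 1 member past the threshold of 20 tested integrin and adhesion genes, while 0.144% of all genes rose. The median of these 20 was -1.74, below that of all genes (-0.81). With genes at 0 counts set to their bounds it was -0.41, above that of all genes (-0.65). Scara3, a scavenger receptor-like membrane protein, was at 212, 294 and 396 CPM against 0, 21.5 and 0 CPM. The membrane carboxypeptidase Cpm was at 307, 329.7 and 828 CPM against 4.7, 22.6 and 32.4 CPM. Both were higher in every animal, by 8.28 ± 1.76 and 4.65 ± 1.17.

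The other higher genes were highest in the resting sum of animal D. The nuclear RNA Malat1 was at 7725, 10377 and 61416 CPM in the resting sums and 4847, 5123 and 5845 CPM in the proliferative ones, a change of 1.70 ± 0.42 (edgeR, adjusted p = 0.0202). The groups did not overlap, yet the resting value of D was several times those of A and B. Malat1 was also at 17599, 28329 and 54600 CPM in the hypertrophic sums of A, B and D. Lhfp was at 26.5, 0 and 886 CPM in resting sums and had 0 proliferative counts. It was at least 214-fold higher over the group, with 228 of its 233 counts from D and 0 from B. The same resting library of D held most of the Beta-s counts given above. It also held 12 counts of S100a8, 10 of S100a9 and 4 of Camp, from a list of neutrophil and marrow markers. Of 12 such markers 8 had 0 counts in all sums, Mpo and Elane among them. The proliferative sum of B held 7 counts of S100a9 and 11 of Camp, so these counts were not confined to the resting library of D. The part of blood and marrow cells in these rises was not tested.

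Markers of prehypertrophic and hypertrophic cells were lower in the resting zone in part, 7 of 17 tested with 0 higher, while 0.417% of all genes fell. The 7 were Ihh, Mef2c, Sgms2, Alpl, Smpd3, Panx3 and Pth1r. The list median was -2.37 on the log2 scale, against -0.81 for all genes. Of the 17, 11 had a fitted change below 0 and 6 above, and 66.3% of all genes were below 0. Panx3, a channel protein of prehypertrophic chondrocytes, was at 90, 5.07 and 7.77 CPM in the resting sums and 1333, 1189 and 495 CPM in the proliferative ones. Indian hedgehog (Ihh), the signal of prehypertrophic cells, had 0 resting counts and stood at 79.9, 67.9 and 8.64 CPM in proliferative sums, at least 11.9-fold lower over the group. The transcription factor Mef2c, which drives hypertrophy, was at 100.5, 0 and 23.3 CPM against 433, 484 and 564 CPM. Alkaline phosphatase (Alpl), needed for mineralisation, was at 68.8, 30.4 and 27.2 CPM against 319.7, 402 and 164 CPM. In each of these genes the highest resting sum lay below the lowest proliferative sum. The changes were -5.28 ± 0.91 for Panx3, -3.99 ± 0.85 for Mef2c and -2.85 ± 0.76 for Alpl (edgeR, adjusted p = 1.38e-05, 0.00219 and 0.0343).

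Type X collagen (Col10a1), the defining collagen of hypertrophic cells, did not follow them. It was at 8159, 10.1 and 27.2 CPM in the resting sums and 3387, 2725 and 127 CPM in the proliferative ones, with a change of -1.57 ± 2.28 (edgeR, adjusted p = 0.861), which turned to 0.39 without the animal block and 0.52 without P28 animal B. Ibsp, bone sialoprotein, was at 249, 0 and 206 CPM in resting sums against 23.5, 2.26 and 30.2 CPM and did not pass. Spp1, or osteopontin, held 99 counts in the resting sum of B and 0 to 2 in the other 5. The prehypertrophic list summed to 1527 to 9699 CPM in the resting sums and 9165 to 12607 CPM in proliferative sums, with 2 of 24 members at 0 in all. In A, whose resting sum held Col10a1 above its proliferative sum, Panx3, Mef2c, Alpl and Ihh were still lower in resting.

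Glycolysis and hypoxia genes had the lowest median of all lists with at least 5 genes tested, -2.79 on the log2 scale and -2.44 with genes at 0 counts set to their bounds, against -0.81 and -0.65 for all genes. Of 35 tested, 4 fell, against 0.417% of all genes, and 0 rose. A fitted change below 0 was found in 32, against 66.3% of all genes. In 20 every resting sum lay below every proliferative sum, against 14.7% of all genes. Lactate dehydrogenase A (Ldha), which turns pyruvate to lactate, was at 179.9, 25.4 and 27.2 CPM in the resting sums and 679, 658 and 551 CPM in the proliferative ones. The glycolytic aldolase Aldoa was at 68.8, 20.3 and 23.3 CPM against 296, 405 and 509.9 CPM. Each of these genes has 2 named processed copies in GENCODE M21 that could share reads. Slc16a3, or MCT4, the carrier that exports lactate, had 0 resting counts and stood at 75.2, 129 and 201 CPM in proliferative sums, at least 28.9-fold lower. Ndufa4l2, a mitochondrial protein induced by hypoxia, had 0 resting counts against 28.2, 84.8 and 159.9 CPM, at least 19.5-fold lower. Outside the list, basigin (Bsg), the membrane partner of the lactate carriers, was at 37, 213 and 23.3 CPM against 498, 567 and 1124 CPM.

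The changes were -3.30 ± 0.84 for Ldha, -3.64 ± 0.96 for Aldoa and -3.26 ± 0.87 for Bsg (edgeR, adjusted p = 0.0236, 0.0313 and 0.0343; 0.0236 for Slc16a3 and 0.0276 for Ndufa4l2). The most abundant other members did not pass: the collagen prolyl hydroxylase subunit P4ha1 was at 286, 167 and 202 CPM against 477, 523 and 620.1 CPM, and the carbonic anhydrase Car12 at 179.9, 243 and 0 CPM against 470.1, 456 and 704 CPM. Under RLE scaling the list median was -2.21 and 0 of its 35 members passed, while 19 had an unadjusted p under 0.05 with the main scaling and 6 fell in DESeq2. Ldha was at 180 CPM in the resting sum of A and at 25.4 and 27.2 CPM in those of B and D, so the resting animals themselves differed widely.

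For Ldha, Slc16a3 and Aldoa, 3 of the 4 list members that fell, the 250 bases before a start site are shown from RefSeq (GRCm38.p6); none is shown for Ndufa4l2. They are printed with the letters ACGTG, the core of the hypoxia response element, in capitals on either strand. The start with the most matches was chosen for each gene after the matches were counted. Of 32851 promoter windows of this length, 16.6% held ACGTG, 28.2% held GCGTG and 38.6% held either. Ldha had 5 matches of ACGTG, with CACGTG counted once on each strand, Slc16a3 had 2 and Aldoa 1, and none held GCGTG here. Another start of Ldha held 0 of ACGTG and 1 of GCGTG, and another of Aldoa held 0 of both. All 3 windows shown lie within the spans of their genes in GENCODE M21.
Ldha, chr7:46845554-46845803, plus strand: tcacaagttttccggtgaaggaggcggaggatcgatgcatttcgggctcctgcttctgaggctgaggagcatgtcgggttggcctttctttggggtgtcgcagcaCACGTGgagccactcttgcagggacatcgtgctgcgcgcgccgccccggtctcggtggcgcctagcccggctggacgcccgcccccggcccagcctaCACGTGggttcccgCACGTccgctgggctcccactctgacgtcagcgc
Slc16a3, chr11:120948817-120949066, plus strand: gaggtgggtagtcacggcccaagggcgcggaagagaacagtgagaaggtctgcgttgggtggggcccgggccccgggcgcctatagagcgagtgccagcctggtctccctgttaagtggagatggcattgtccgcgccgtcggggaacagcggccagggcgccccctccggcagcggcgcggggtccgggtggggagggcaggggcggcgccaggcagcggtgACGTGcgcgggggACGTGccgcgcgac
Aldoa, chr7:126799255-126799504, minus strand: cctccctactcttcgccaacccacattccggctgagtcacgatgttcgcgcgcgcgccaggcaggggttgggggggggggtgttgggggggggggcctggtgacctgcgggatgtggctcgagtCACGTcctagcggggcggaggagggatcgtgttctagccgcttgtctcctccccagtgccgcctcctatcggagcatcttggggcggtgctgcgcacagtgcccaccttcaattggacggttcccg

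Matrix genes and the machinery that secretes collagen were lower in part. Hapln1, the link protein that fixes aggrecan to hyaluronan, was at 3646, 2328 and 5974 CPM in the resting sums and 15413, 12729 and 17019 CPM in the proliferative ones. Col11a1, a chain of the minor fibrillar collagen XI, was at 5471, 6026 and 8598 CPM against 20234, 17958 and 25852 CPM. Serpinh1, or Hsp47, the chaperone of collagen in the endoplasmic reticulum, was at 534, 1060.1 and 279.9 CPM against 2799.6, 2596 and 5337 CPM. All 3 were lower in every animal, by -2.0 ± 0.45, -1.70 ± 0.42 and -2.54 ± 0.65 on the log2 scale (edgeR, adjusted p = 0.00504, 0.0226 and 0.0236). Chsy1, a synthase of chondroitin sulphate chains, was at 26.5, 0 and 0 CPM against 169, 89.4 and 145 CPM, with resting counts in A alone. Col2a1, the main cartilage collagen, was at 44166, 51121 and 22941 CPM against 70128, 74329.6 and 137449 CPM, a change of -1.11 ± 0.36 that did not pass (edgeR, adjusted p = 0.155). Acan, the core protein of aggrecan, was at 4667, 3348 and 3382 CPM against 6612, 6982 and 14452 CPM and did not pass either.

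Of 36 secretory and collagen folding genes 1, Serpinh1, fell, while 24 had every resting sum below every proliferative one, against 14.7% of all genes, and the median was -1.46. The 15 cartilage collagens had 1 member past the threshold and a median of -1.11, and the 13 genes of the aggrecan complex 1 and -1.14. Of all genes 0.417% fell, and the median of all genes was -0.81. Under RLE scaling these medians were -0.87 for the secretory list and -0.57 for the collagens, and 0 of their members passed.

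Sgms2 (GRCm38, chromosome 3, 131318985 to 131491411, minus strand), a sphingomyelin synthase of the plasma membrane, was at 0, 0 and 3.89 CPM in the resting sums and 1107, 1746 and 732 CPM in the proliferative ones. That is 1 count against 2354, a pooled ratio of 0.00117 (2.96e-05 to 0.00653) with its exact 95% interval. In libraries outside the fit the gap was smaller. Sgms2 was at 8.96 against 561 CPM in the xylene sections of D and 171 against 2769 CPM in those of E. Resting replicate 5 of B, under the minimum, held 5 counts of it, 60.2 CPM of the library total. Smpd3, the neutral sphingomyelinase whose loss impairs mineralisation in mice, was at 106, 65.9 and 847 CPM against 2200.2, 2658 and 3556 CPM. Sgms2 and Smpd3 were the 2 that fell of 14 sphingolipid genes tested, while 0.417% of all genes fell. Both are also among the 7 prehypertrophic markers that fell, so the 2 lists are not separate results. Another sphingomyelinase of the list, Smpd4, did not pass. The list median was -1.27, against -0.81 for all genes. Scd2, a fatty acid desaturase, was at 217, 365 and 148 CPM against 1697, 1226 and 1860.3 CPM, and the squalene epoxidase Sqle of cholesterol synthesis at 0, 15.2 and 0 CPM against 87, 92.7 and 214 CPM. They were the 2 that fell of 29 cholesterol and fatty acid genes tested, while 0.417% of all genes fell. The median of these 29 was -1.85, against -0.81 for all genes.

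Ppa1 (GRCm38, chromosome 10, 61648552 to 61674168, plus strand), the cytosolic pyrophosphatase that splits the pyrophosphate released by biosynthesis, was at 10.6, 81.2 and 3.89 CPM in the resting sums and 1652, 1691 and 2694 CPM in the proliferative ones. It fell by 6.31 ± 0.95 on the log2 scale (edgeR, adjusted p = 7.06e-08) and passed the threshold under all 25 alternatives tried. Mfge8, a secreted protein that binds phosphatidylserine, was at 190.5, 172 and 73.9 CPM against 1093, 1289 and 2843 CPM. The surface glycoprotein Cd24a was at 52.9, 127 and 54.4 CPM against 588, 438 and 681 CPM. Prkg2, the cGMP-dependent kinase that carries the C-type natriuretic peptide signal in growth plate cells, was at 0, 60.9 and 3.89 CPM against 299, 368 and 125 CPM. In all of them the proliferative sums lay above every resting sum. The secreted matrix-associated protein Ccdc80 was at 90, 81.2 and 27.2 CPM in resting, 769, 625 and 341 CPM in proliferative and 2627, 2822 and 3117 CPM in hypertrophic sums of the same animals.

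Grb14, an adaptor that restrains insulin receptor signalling, had 2 resting counts against 257, a pooled ratio of 0.0214 (0.00258 to 0.0782). Cgref1, a secreted protein with EF-hands, had 1 against 302, a pooled ratio of 0.00912 (2.30e-04 to 0.0512). Samd4, an RNA-binding repressor of translation, had 0 resting counts and 23.5, 11.3 and 408 CPM in proliferative sums. It was at least 25.3-fold lower over the group, yet 182 of its 209 proliferative counts came from the Xist-bearing library of D. The imprinted zinc finger gene Plagl1 was at 37, 117 and 73.9 CPM against 451, 586 and 372 CPM, and Capn6, a calpain without protease activity, at 95.2, 0 and 23.3 CPM against 273, 165 and 633 CPM.

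C430049B03Rik, a non-coding transcript, was at 21.2, 0 and 54.4 CPM in the resting sums and 270.3, 512 and 86.4 CPM in the proliferative ones, a change of -3.82 ± 0.95 (edgeR, adjusted p = 0.0226). In RefSeq (GRCm38.p6) it spans 53053112 to 53057190 of chromosome X on the minus strand and holds the hairpins of 3 miRNAs. In GENCODE M21 it starts at 53055046, which leaves those hairpins outside, and the annotation used for counting is not given, so whether the counted transcript is their host is not settled. The main mature forms are shown, as products of the RefSeq locus, with the seed, bases 2 to 8, in capitals. The miRNAs themselves were not measured by these libraries. The seeds of miR-322-5p and miR-503-5p share their first 6 bases, and that of miR-351-5p is unlike both.
mmu-miR-322-5p: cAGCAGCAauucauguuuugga
mmu-miR-503-5p: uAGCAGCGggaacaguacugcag
mmu-miR-351-5p: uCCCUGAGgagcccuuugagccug

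Cell cycle genes gave 0 of 43 past the threshold in edgeR, 1 at an unadjusted p under 0.05 and 1 in DESeq2, lower. Their median was -0.76, or -0.39 with genes at 0 counts set to their bounds, and -0.081 under RLE scaling. In the xylene-fixed sections of animals D and E, 24 of the 43 were higher in the resting zone of both, as were 24.9% of all genes. In both animals 4 were lower, as were 30.9% of all genes. Mki67, the proliferation antigen, was at 196, 112 and 46.6 CPM in the resting sums and 68.2, 88.2 and 110.2 CPM in the proliferative ones, and Top2a, the topoisomerase of dividing cells, at 333, 172 and 7.77 CPM against 118, 153 and 17.3 CPM. In both genes A was higher in resting and D lower, so the groups overlapped and the signs turned without P28 animal A, to -0.48 for Mki67 and -0.51 for Top2a. Cdkn1c, an imprinted inhibitor of the cell cycle, was at 280.4, 193 and 62.2 CPM against 924, 1032 and 635 CPM and did not pass (edgeR, adjusted p = 0.0692). The groups did not overlap for it.

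Among hedgehog genes 1 of 11 tested, the ligand Ihh, fell, against 0.417% of all genes. The hedgehog receptor Ptch1 and the transcription factor Gli1, both induced by the signal, had 9 and 22 resting against 15 and 18 proliferative counts. At those counts no direction can be read, and the sign of Ptch1 turned under 9 of the alternatives. Growth hormone and IGF genes had 0 of 19 past the threshold in edgeR, 5 at an unadjusted p under 0.05, 1 higher and 1 lower in DESeq2, and a median of 0.83. The imprinted growth genes Igf2, at 10.6, 117 and 3.89 CPM against 2.35, 5.66 and 15.1 CPM, and H19, at 1159, 766 and 167 CPM against 306, 454 and 771 CPM, overlapped between the zones. Sox9, the master transcription factor of cartilage, and Fgfr3, the receptor that slows column growth, did not pass, with changes of -0.52 ± 0.72 and -0.42 ± 0.73 that turned to 0.067 and 0.21 under RLE scaling. Nuclear-encoded oxidative phosphorylation genes had 0 of 39 past the threshold in edgeR and in DESeq2, 3 at an unadjusted p under 0.05 and a median of -1.49. Cytosolic ribosomal protein genes had 0 of 31 on all 3 counts and a median of -1.04.

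**Figure D2:**
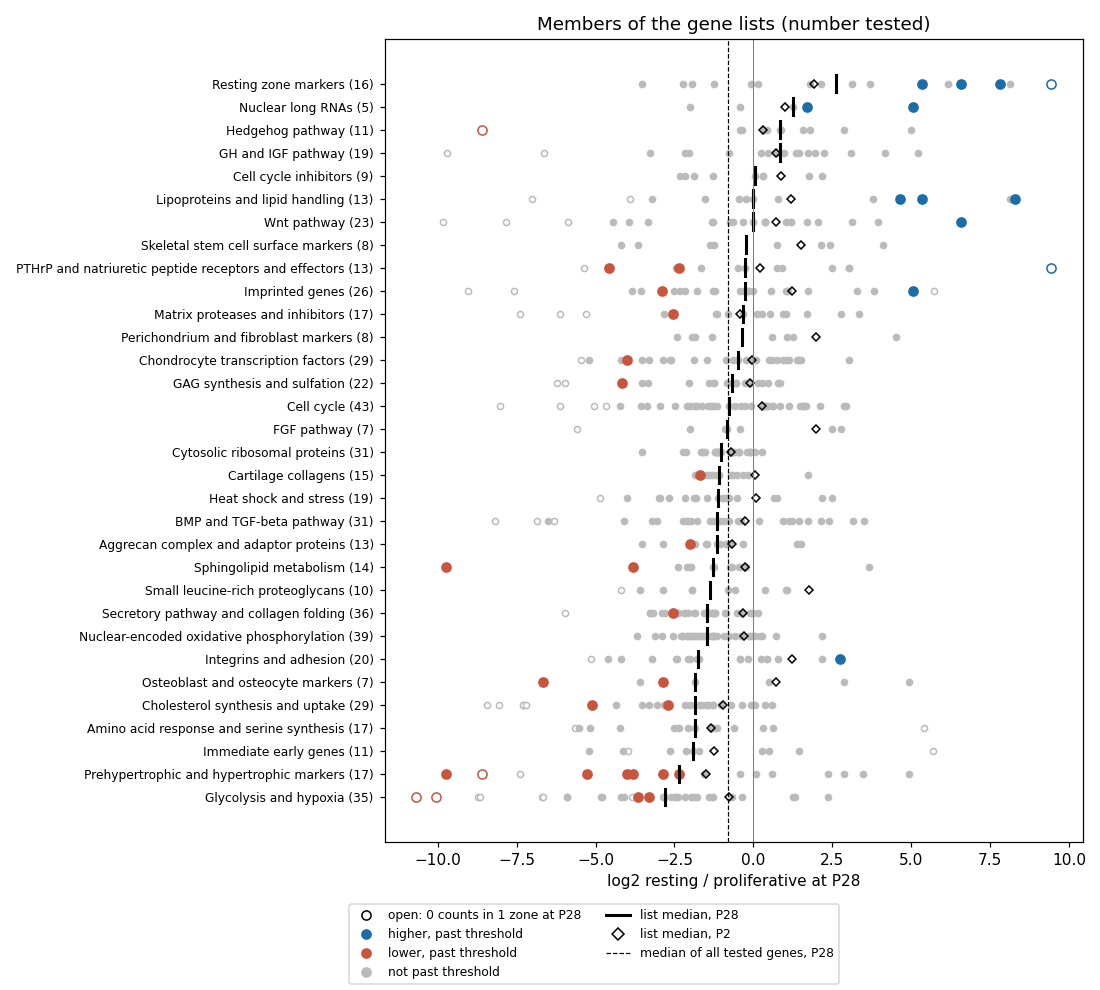
Log2 change of each tested list member between resting and proliferative sums at P28, with the list median at P28 (black bar) and P2 (open diamond); grey points did not pass the threshold, and open circles had 0 counts in 1 zone, where the fitted size depends on the prior count. Among these lists, which have at least 5 genes tested each, glycolysis and hypoxia genes had the lowest P28 median (-2.79), the resting zone markers the highest (2.62), and the dashed line marks all genes (-0.81).

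Single libraries were also set against each other. In D, the resting library was below proliferative replicate 9 in 29 of the 29 lower genes and below replicate 8 in 21, and it was above either replicate in 9 of the 10 higher genes. These libraries are part of the sums that chose the genes, so the counts describe how the 2 replicates differ and support nothing. Sgms2 stood at 547 CPM of the library total in replicate 9, at 9.94 in replicate 8 and at 3.84 in the resting library of D. The resting libraries with 92552, 83115 and 86737 counts fell just under the minimum and took no part in the test, although the proliferative libraries they are set against here did. Replicate 2, of A, lay below the median of the 6 proliferative libraries in 28 of the 29 lower genes and above it in 9 of the 10 higher ones, against 43.7% and 49.8% of all genes. Replicate 5, of B, did so in 27 and 9, against 50.2% and 43.6%. Replicate 7, of animal C, did so in 29 and 7, against 75.6% and 15.6%, and held 2529 detected genes.

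Xylene-fixed P28 sections offered a reading outside the fit. The resting and proliferative sums held 1501478 and 4346980 counts in animal D and 631447 and 1955727 in animal E. All 29 lower genes were lower in the resting zone of both animals, as were 30.9% of all genes tested. Of the 10 higher genes 8 were higher in both, as were 24.9% of all genes, and the exceptions were Lhfp and Pthlh. Lhfp was at 1.38 against 9.46 CPM in D and 4.72 against 0 CPM in E, and Pthlh had 0 counts in both zones of D and was at 3.14 against 0 CPM in E.

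Levels in the deeper xylene sections could be read gene by gene. Ldha was at 196 against 999 CPM for resting against proliferative in D and 212 against 1483 CPM in E, and Aldoa at 65.5 against 254 and 56.6 against 336 CPM. Ihh had 0 resting counts in both animals, against 56.1 and 115 CPM in their proliferative zones. Slc16a3 and Ndufa4l2, at 0 in the ethanol resting sums, were found in xylene resting sums of D at 9.65 and 8.27 CPM. Of the 35 glycolysis and hypoxia genes 28 were lower in the resting zone of both animals and 3 higher, against 30.9% and 24.9% of all genes. Meg3 was at 767 against 50.2 CPM in D and 1078 against 122 CPM in E, and Scara3 at 301 against 15.5 and 214 against 34.3 CPM. Among the lower genes Chsy1 differed least in D, with 73.7 against 89.3 CPM. Gli1, at 129.6 against 11.6 CPM in D and 173 against 11.3 CPM in E, and Ptch1, at 71 against 22.8 and 53.4 against 1.69 CPM, were higher in the resting zone of both animals. With 1 sum per animal and zone and 2 animals these are descriptions with no test. A fit with the xylene sums added called 61 genes, 15 higher and 46 lower, and kept 34 of the 39; Malat1, Lhfp, Sgms2, Prkg2 and Chsy1 were those not kept.

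**Figure D3:**
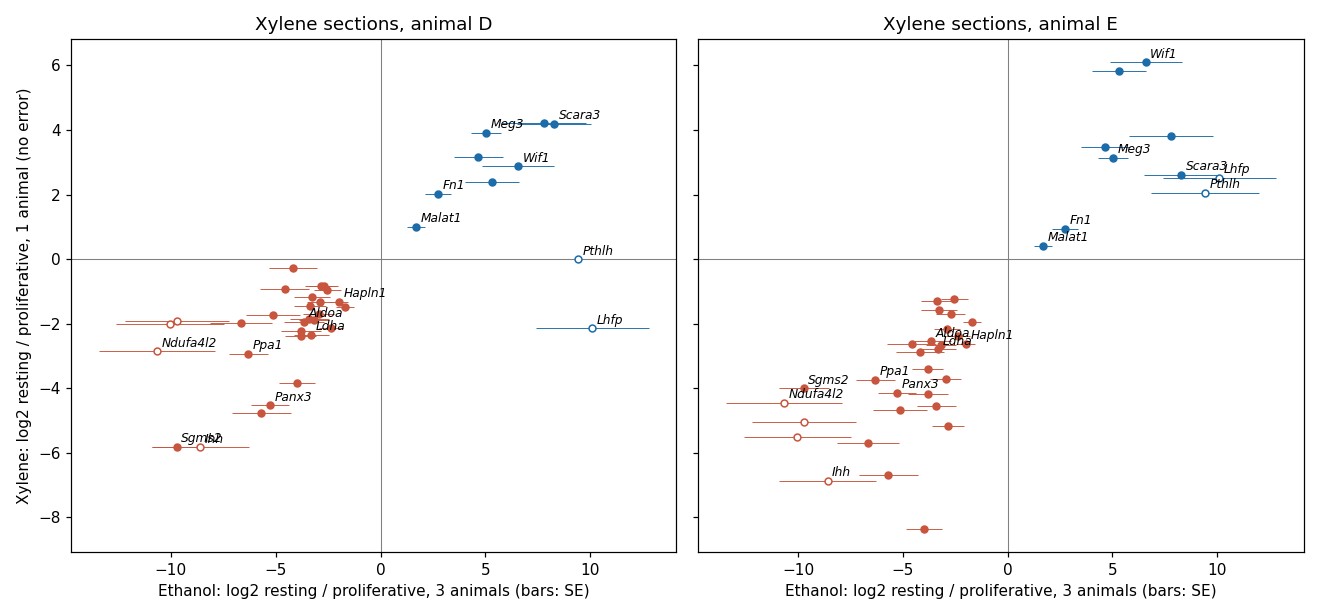
Log2 change between resting and proliferative zone in ethanol sections of 3 animals (x, bars are standard errors) against xylene sections of animal D (left) and animal E (right), for the 39 genes past the threshold in ethanol; open circles had 0 counts in 1 ethanol group. The lower genes (red) lie below 0 in both panels, while Lhfp lies below 0 and Pthlh at 0 in D.

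At P2 the same contrast called 18 genes, 0.259% of those tested, and the difference between the ages passed for 10 genes, 0.144%. Of the 39 genes called at P28, 5 were called at P2 in the same direction, and they were Meg3, Ppa1, Panx3, Pth1r and Alpl (edgeR, adjusted p at P2 from 1.62e-06 to 0.0312). The changes at P2 were 2.68 ± 0.63 for Meg3, -5.13 ± 0.91 for Ppa1, -5.99 ± 0.94 for Panx3, -2.31 ± 0.57 for Pth1r and -4.96 ± 1.03 for Alpl. The age difference passed for none of these 5 (edgeR, adjusted p = 0.629 to 1). The glycolysis list had a median of -0.78 at P2 and 0 members called, and Ldha was at -0.73 ± 0.74 and Aldoa at -0.89 ± 0.83. Their age differences did not pass (edgeR, adjusted p = 0.629 and 0.656).

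Among the genes lower at P28, Sgms2, Samd4 and Capn6 had an age difference past the threshold. Sgms2 was at 10.7 ± 15.1 CPM in the resting sums and 349 ± 594 CPM in the proliferative ones at P2 (SD, n = 4 each). Its change there was -1.36 ± 0.96. With the animal as a block, P2 animals C, E and F, with 1 zone each in the fit, add nothing to the P2 changes. For Sgms2, E held the highest proliferative sum, 1234 CPM. The paired animals A, D and G were at 8.20, 32.7 and 0.537 CPM in resting and 0, 153 and 9.52 CPM in proliferative sums. The difference of the contrasts was -8.38 ± 1.49 (edgeR, adjusted p = 1.48e-04). Capn6 was at 743 ± 474 CPM against 133 ± 166 CPM at P2 and turned from 1.67 ± 0.84 to -3.41 ± 0.93. Epyc, the small proteoglycan epiphycan of the upper growth plate, went from 2.85 ± 0.86 at P2 to -2.85 ± 0.87 at P28, and the imprinted gene Mest from 3.13 ± 0.94 to -3.57 ± 1.19. Decorin (Dcn), a proteoglycan that binds collagen fibrils, was at 1444 ± 1092 CPM in P2 resting sums against 21.1 ± 27.5 CPM and at 159, 208 and 38.9 CPM in P28 resting sums against 35.3, 26 and 58.3 CPM. Fat3, an atypical cadherin, had 1 resting and 38 proliferative counts at P28.

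The remaining age differences ran the other way. Gdf10, a BMP-related growth factor, had 0 counts in the P2 resting sums, and at P28 it was at 74.1, 55.8 and 0 CPM against 193, 213 and 108 CPM. Lsp1, an actin-binding protein, changed by -6.23 ± 1.34 at P2 and 0.38 ± 0.91 at P28, and the proprotein convertase Pcsk6 by -5.71 ± 1.32 and 1.04 ± 1.07. The adjusted p of the 10 ran from 1.48e-04 to 0.0436 (edgeR). Without P28 animals A, B and D the count of age differences was 5, 6 and 12. It was 5, 6, 3 and 1 without P2 animals A, C, D and G, 3 without the Xist-bearing library of P28 animal D and 2 with RLE scaling. Of these P2 animals, C had a hypertrophic sum alone in the fit. The resting library of P2 animal G held 128 Xist and 747 Y-linked counts, and its proliferative library held 0 and 1071. Both patterns were thus present in that resting library.

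**Figure D4:**
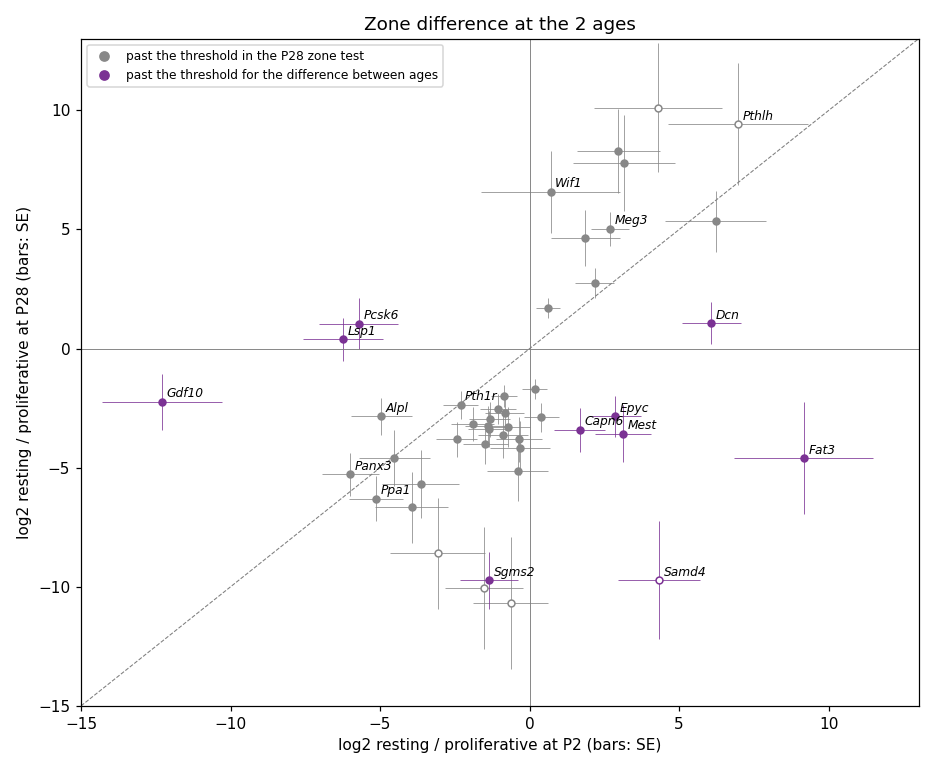
Log2 change between resting and proliferative zone at P2 (x) and P28 (y) with standard errors, for genes past the threshold at P28 (grey) and genes whose change differed between ages (purple); open circles had 0 counts in 1 zone at P28, where the fitted size depends on the prior count. Sgms2, Samd4, Fat3, Epyc, Mest, Capn6 and Dcn lie below the dashed line of equal change, and Gdf10, Lsp1 and Pcsk6 above it.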

How the data were processed

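Growth plate zones of mice were laser-captured and sequenced by SMART-seq2. The authors deposited raw counts, whole reads per gene symbol, for 23420 symbols in 100 columns of 68 libraries; 32 libraries had 2 columns, which were summed. The submitters' processing notes name STAR 2.5.2b, featureCounts 1.5.3, cutadapt and Subread, with build mm10. How strand was handled is not given in the sources used here, nor is the annotation. Since SMART-seq2 marks no strand, overlap matters: 11 of the 39 called genes share exonic bases with a gene on the opposite strand in GENCODE M21, among them Ndufa4l2, Pth1r, Aldoa, Fn1 and Samd4, whose reads cannot be told apart from the partner's.

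Sums per animal and zone were tested with edgeR 4.0.16 in R 4.3.3 (TMM, filterByExpr with a minimum count of 10, robust quasi-likelihood F-test, Benjamini-Hochberg, 0.05) in 1 fit over 21 sums of 26 ethanol P2 and P28 libraries, with the animal as a block and zone within age, 8 residual degrees of freedom. Zones pair by animal, per the labels; deviations from group means correlated by 0.0209 to 0.0349 between the zones of an animal. P-values measure the spread between these sums. Standard errors are the log2 change over the square root of F. Levels are TMM-normalised CPM; single libraries are CPM of their total. Intervals and floors (95%, 3 counts) cover counting error only. Xylene log2 differences used a prior count of 2. Animal labels that end in different numbers or sides were taken as 1 animal.

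The named genes are every called gene, a fixed panel of growth plate genes, called list members with the 3 most abundant of a described list, the 5 smallest p of the age difference, and the most abundant genes. Members and lists were chosen with earlier results of these data known. Alternatives changed scaling, filter, tool (DESeq2 1.42.0), block, samples, minimum depth, symbols, fixation and animals.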

Additional observations from a re-analysis of the deposited data

Results flagged for a closer look

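The zone contrast differed between P28 and P2 for 10 genes by a test of the difference itself (edgeR, Benjamini-Hochberg). The adjusted p was 1.48e-04 for Sgms2, 0.00187 for Samd4, 0.00772 for Epyc, 0.00857 for Gdf10, 0.0113 for Mest, 0.022 for Fat3 and 0.0414 for Lsp1, and 0.0436 for Capn6, Dcn and Pcsk6. For Samd4 the P28 side rests on 1 library, and for Fat3 on 39 counts.

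In the P2 sums of these genes, a single animal lay far from the other 3 in 6 groups. Sgms2 had 1 proliferative sum at 1234 CPM, that of P2 animal E, which had no resting sum in the fit. Samd4 had 1 resting sum at 331 CPM and 1 proliferative sum at 603 CPM. Lsp1 had 1 resting sum at 21.9 CPM. Pcsk6 had 1 resting sum at 124 CPM and 1 proliferative sum at 75.2 CPM. In all, 26 groups were examined, not all of them P2 sums of these genes. A group without counts, such as Gdf10 in the P2 resting sums, could not be flagged. The genes were chosen by a test on the same sums, so the number flagged cannot be set against a rate by chance.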

How the results depend on the processing

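The count of genes past the threshold at P28 (39) was 18 with RLE scaling, 14 with no low-count filter, 5 with a filter at 30 counts, 128 with DESeq2 and 23 without robust fitting. It was 2 with no replicate block, 3 with the P28 sums of 3 zones alone and 2 with the P28 resting and proliferative sums alone. It was 4 with a minimum of 50000 counts, 11 with no minimum and 255 with 100000 counts outside Rn45s, Lars2 and Glra2. It was 70 with each label as an animal, 8 without the Xist-bearing library of P28 animal D and 61 with xylene added. Thinning every sum to 1 total gave 31 and leaving out the 3 symbols 38. Without 1 animal it ran from 5 to 39.

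The count of age differences (10) was 2 with RLE scaling, 5 with no filter, 0 with a filter at 30 counts, 44 with DESeq2, 3 with no replicate block and 6 without robust fitting. It was 3 with a minimum of 50000 counts, 3 with no minimum and 95 with 100000 counts outside the 3 symbols. It was 3 without the Xist-bearing library of P28 animal D, 4 with thinning and 6 with xylene. Without 1 animal it ran from 1 to 12. The causes of these moves were not tested.

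Of the called genes 1 changed sign, Efemp1, to -3.22 with 100000 counts outside the 3 symbols. Genes that were not called changed sign as follows. That same minimum gave -1.59 for Igf2, -0.021 for Dcn, -6.42 for Pcsk6, -2.33 for H19, -1.11 for Top2a, -1.01 for Mki67 and -1.08 for Ucma. No minimum gave 0.28 for Col2a1, 0.34 for Acan, -0.85 for Gas1, -0.11 for Mki67 and 0.48 for Ptch1. RLE gave 0.067 for Sox9, 0.21 for Fgfr3 and 0.2001 for Ptch1, DESeq2 0.064, 0.21 and 0.44 in the same order, and thinning 0.074 for Sox9 and 0.0198 for Fgfr3. The xylene fit gave 0.077 for Fgfr3 and 1.46 for Ptch1. Ptch1 was 0.65 with a minimum of 50000 counts and 5.21e-04 with each label as an animal. With no replicate block Col10a1 was 0.39 and Ptch1 1.1. Without 1 animal the lowest and highest values were -0.14 and 3.74 for Igf2, -0.51 and 1.89 for Pcsk6, -0.77 and 1.55 for H19, -1.56 and 3.03 for Gli1, -5.39 and 0.52 for Col10a1, -0.51 and 0.99 for Top2a, -0.48 and 0.97 for Mki67, -0.052 and 0.54 for Ucma, and -4.65 and 0.56 for Ptch1. Resting sums of 108601 to 260199 counts limit what can be seen of low genes.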
